A study of Rattus norvegicus with 4 samples.

Results

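Solute carriers are membrane proteins that move small molecules across the plasma membrane or the membranes of organelles. Their messages were followed here in rat liver 1 h after the common bile duct was tied. The members were all probes of the array whose platform annotation gives exactly 1 gene symbol of the form Slc and a number. The bile salt importer Slc10a1 and the Slco organic anion carriers were left out. The rule found 90 probes of 1936. They stood for 49 of 958 named genes, in 24 SLC families, of which 13 had a single measured gene.

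The study compared male Sprague-Dawley rats whose common bile duct was tied with rats that had a sham operation in which the duct was exposed and not tied, both killed at 1 h under ether anaesthesia. Rats were killed in groups of 3 and the RNA of their livers (right lateral lobe) was mixed, so that no value belongs to a single animal. Poly(A) RNA of both operations was hybridised together on each of 4 two-colour cDNA arrays. RNA of ligated rats was labelled with Cy5 on arrays 1 and 3 but with Cy3 on arrays 2 and 4, each time against sham RNA in the opposite dye. A general protocol text in the labels names Cy5 for the ligated sample throughout, and the channel labels of each array, followed here, give the swap. The labels do not say if the arrays were made from the same RNA extracts. The p-values reflect only how arrays of pooled RNA varied, largely as shared over all probes.

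In the liver, solute carriers take up amino acids, sugars, nucleosides, carnitine and organic ions from the portal blood, and release glucose and other products. Many are coupled to the sodium or proton gradient, others exchange substrates or let them pass down their gradient. A family number groups carriers by sequence, and members of a family often share a class of substrate.

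Each value was a log ratio of both channels, read as ligated over sham. Positive values are thus higher after ligation. The labels do not state this direction or the base of the log, so signs rest on the labelled channel order (ligated as channel 2) and would turn with the opposite reading. Estimates are given on the deposited scale. The array medians were -0.88, 0.75, -0.73 and 0.87 and followed the dye, and their mean was 0.0046. Estimates came from a linear model per probe that fits the operation and the dye at once, on values centred on each array's median. They are given with their standard error (SE, n = 4 arrays), and a probe was called at an adjusted p under 0.05 over all 1936 probes. Each SE drew the probe's own variance, with 2 degrees of freedom, towards a variance shared by all probes. The shared part weighed 76.2 degrees of freedom on centred values and 7.58 after the curve described next. Carrier SEs on centred values thus lay between 0.0835 and 0.0953, and show little of a probe's own spread. A second set of values removed, within each of 16 equal blocks of consecutive probe numbers, a smooth curve of the value against the probe's dye effect. That dye effect was the mean of the same 4 arrays, so the curve draws the dye orientations together. Agreement between arrays of opposite dye after the curve is thus built in. The blocks are runs of numbers in the table and the labels do not name them. These curve-corrected values are used beside the first because block 3 stood apart, with a median centred estimate of -0.29. Blocks 4 and 7 also lay low, with medians of -0.136 and -0.0997, and block 1 lay high, with 0.066. The arrays give ratios and no levels, so the liver origin of the RNA could not be checked against marker levels, and fewer cells of a type and less RNA per cell cannot be told apart.

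The upstream sequences of 4 carriers are shown because they were called on both sets of values (Slc28a2, Slc22a8 and Slc7a1) or at more than 1 probe after the curve (Slc16a1). Each holds the 250 bases before the RefSeq start in GRCr8, 5′ to 3′, all on the plus strand. Of the 49 genes, 41 had an entry. Capitals mark every match, on either strand, to TATAA (the core of a TATA box), ATTGG (the CCAAT box read on the other strand), GGGCGG (a GC box), GTTAAT (a half-site of HNF1), CACGTG (an E-box) and AGGTCA (a nuclear receptor half-site). Slc28a2 lies at chr3:129819538-129819787, Slc22a8 at chr1:214927034-214927283, Slc7a1 at chr12:11664238-11664487 and Slc16a1 at chr2:194812410-194812659.
Slc28a2: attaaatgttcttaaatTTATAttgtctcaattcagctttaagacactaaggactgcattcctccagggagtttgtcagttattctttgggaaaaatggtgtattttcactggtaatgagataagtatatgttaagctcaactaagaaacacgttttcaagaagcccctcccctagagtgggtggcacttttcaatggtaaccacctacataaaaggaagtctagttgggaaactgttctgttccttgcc
Slc22a8: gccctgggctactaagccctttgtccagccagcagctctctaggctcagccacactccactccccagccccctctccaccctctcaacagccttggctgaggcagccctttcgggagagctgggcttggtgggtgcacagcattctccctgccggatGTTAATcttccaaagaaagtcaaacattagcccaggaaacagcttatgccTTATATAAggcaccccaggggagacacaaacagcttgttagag
Slc7a1: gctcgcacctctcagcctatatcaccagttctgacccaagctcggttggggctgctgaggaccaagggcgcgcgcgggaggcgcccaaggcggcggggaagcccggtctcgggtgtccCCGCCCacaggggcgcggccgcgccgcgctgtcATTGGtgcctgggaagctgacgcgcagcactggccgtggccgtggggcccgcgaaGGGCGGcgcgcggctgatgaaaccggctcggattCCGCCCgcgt
Slc16a1: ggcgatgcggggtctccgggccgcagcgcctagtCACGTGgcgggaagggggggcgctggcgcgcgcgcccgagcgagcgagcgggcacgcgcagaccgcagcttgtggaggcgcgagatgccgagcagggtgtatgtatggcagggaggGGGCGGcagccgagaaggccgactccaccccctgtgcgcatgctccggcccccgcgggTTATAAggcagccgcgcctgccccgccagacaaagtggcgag

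The upstream sequences differed in make-up. Slc7a1 held 3 GC boxes and an ATTGG match, Slc16a1 an E-box, a GC box and overlapping TATAA matches that began 42 and 41 bases before the start, and Slc22a8 a GTTAAT match 93 bases before the start and overlapping TATAA matches at 43 and 40. Slc28a2 held only a TATAA match on the other strand at 233. In the same window of 33469 RefSeq promoters, TATAA was found in 24.0%, ATTGG in 34.0%, GGGCGG in 30.5%, GTTAAT in 6.5%, CACGTG in 5.6% and AGGTCA, which none of the 4 holds, in 14.1%. Of the 41 promoters of the carriers, 9 held TATAA, 12 ATTGG, 22 GGGCGG, 3 GTTAAT, 6 CACGTG and 4 AGGTCA. The matches describe letters only.

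Across the carriers, 1 probe rose (Slc28a2) and 6 fell on centred values. The fall was seen at 2 probes of Slc7a1 and at single probes of Slc7a7, Slc22a3, Slc22a8 and Slc17a7. Of all probes 5.73% were called (0.930% higher and 4.80% lower), and of the carrier probes 7 of 90 (7.78%), so that the share of carriers was near that of the whole array. The median carrier estimate was -0.030 against -0.020 over all probes, with an SD over probes of 0.13 for both. An unadjusted p under 0.05 was reached by 12 carrier probes. Without replicates 1, 2, 3 and 4 in turn, 0, 2, 1 and 10 carrier probes were called, where 1.24%, 2.48%, 0.620% and 12.4% of all probes were (0, 2.22, 1.11 and 11.1% of the carriers). In the fit without replicate 1, with 0 calls, 9 had an unadjusted p under 0.05. For both counts of unadjusted p no share over all probes is given, so they cannot be read as particular to the carriers.

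Of the 6 probes that fell, 5 lay in block 3, where 49.6% of all probes were called, all of them lower. Outside block 3, 2 of 83 carrier probes were called (2.41%, against 2.81% of all probes there): Slc28a2 up and Slc22a8 down. After correction by the block curve, 6 carrier probes were called (6.67%, against 6.35% of all probes, of which 3.05% higher and 3.31% lower), 5 of them among the 83 outside block 3 (6.01% of all probes there) and 1 of 7 inside it (11.6% of all probes there). Slc28a2, both Slc16a1 probes 1212 and 1262 and Slc2a4 probe 124 were higher, and Slc22a8 and Slc7a1 probe 276 were lower. Slc28a2, Slc22a8 and Slc7a1 probe 276 were called on both sets of values. After the curve, 10, 1, 9 and 1 carrier probes were called without replicates 1, 2, 3 and 4 in turn, where 11.5%, 2.17%, 7.59% and 3.15% of all probes were. Slc28a2 was among them each time. Here and below, the curve was fitted on all 4 arrays and not again, so the array left out still shaped the values. That a call held in these fits is thus partly built in.

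**Figure D1:**
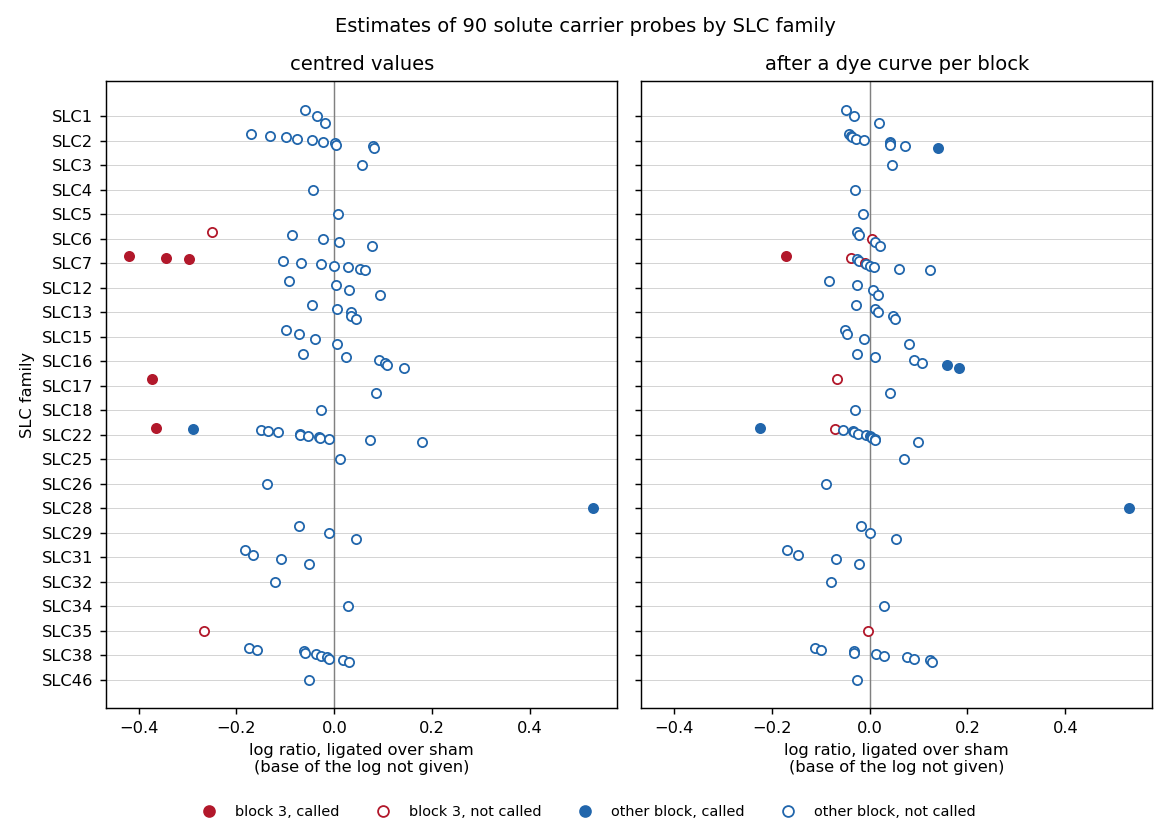
Log ratio of ligated over sham (horizontal axis, base of the log not given) for each of 90 solute carrier probes by SLC family (vertical axis), on centred values (left) and after a dye curve per block (right). Filled points were called at an adjusted p under 0.05 and red points lie in block 3. Slc28a2 stands alone at 0.53 on both sides, while the block 3 probes move from between -0.42 and -0.25 to between -0.17 and 0.0047.

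The nucleoside carriers held the largest estimate of all carrier probes. Slc28a2 encodes a sodium-coupled carrier that takes up purine nucleosides and uridine, and was measured by probe 1717. Its deposited log ratios were 0.49, 0.60, 0.48 and 0.56 on arrays 1 to 4. All 4 arrays were above 0 whichever dye the ligated sample carried, and no other carrier probe had this, against 19 probes of the whole array. Slc28a2 rose by 0.53 ± 0.084 (adjusted p = 2.99e-06), which would be 1.44-fold if the base is 2, 1.70-fold if it is e and 3.37-fold if it is 10. It ranked 7th from the highest of 1936 probes. After curve correction, which itself draws the dye orientations together, the 4 arrays gave 0.55, 0.54, 0.51 and 0.52. The estimate was then 0.53 ± 0.033 (adjusted p = 1.05e-05). The call ended without replicate 1 (0.49 ± 0.14, adjusted p = 0.0567) and without centring (0.53 ± 0.045, adjusted p = 0.0508), with nearly the same estimates. It also ended without the dye term, where the SE was far larger (0.53 ± 0.35).

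The equilibrative nucleoside carriers, which let nucleosides pass down their gradient, did not pass. Slc29a1 had 0.045 ± 0.084, Slc29a2 had -0.073 ± 0.084 and Slc29a3 had -0.010 ± 0.085, and after curve correction they lay between -0.017 and 0.053. Their values were thus within 1 SE of 0 on centred values. Among enzymes of purine nucleosides, 4 of 15 listed genes were measured at 6 probes, and 0 were called in either direction on either set of values (median -0.097, and -0.039 after the curve). These were Hprt1, Pnp, Dck and Uox.

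**Figure D2:**
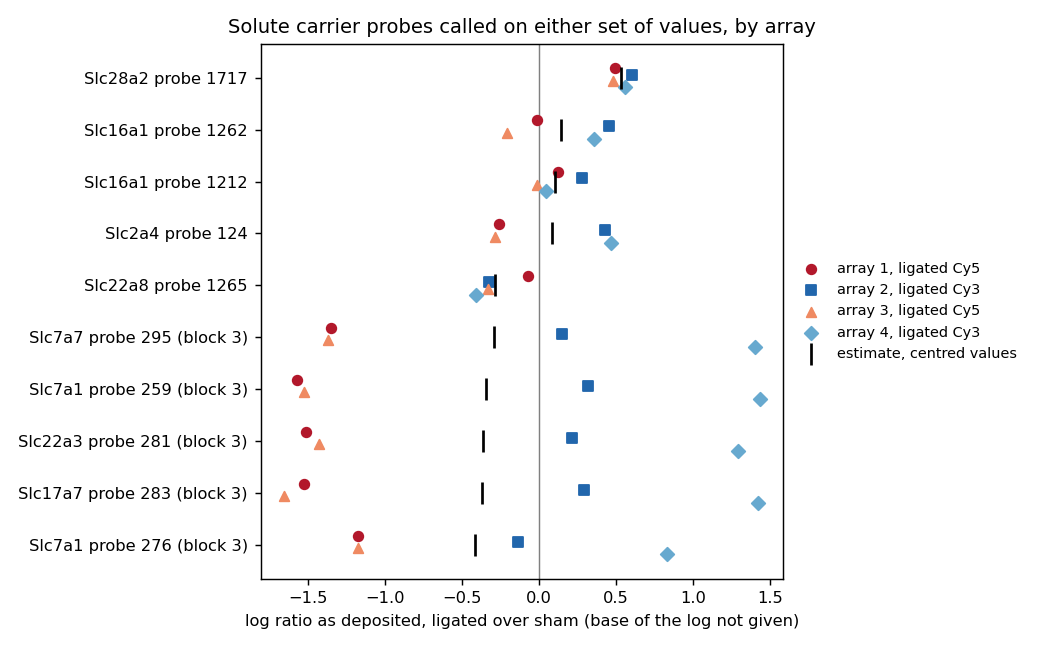
Deposited log ratios of ligated over sham (horizontal axis, base not given) on each of 4 arrays for the 10 solute carrier probes called on either set of values, with the centred estimate as a black tick. For Slc28a2 all arrays sit between 0.48 and 0.60. The probes of block 3 part by dye and have array 2 between -0.14 and 0.31 but array 4 between 0.83 and 1.43.

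The SLC22 family, carriers of organic cations, organic anions and carnitine, had 13 probes of 5 genes with a median of -0.069. Slc22a8 encodes OAT3, an organic anion carrier. Its probe 1265 had -0.073, -0.33, -0.33 and -0.41 on arrays 1 to 4, below 0 on all of them, as 3 other carrier probes (Slc22a18, Slc38a3 and Slc2a8) and 115 probes of the whole array were. Slc22a8 fell by 0.29 ± 0.085 (adjusted p = 0.0254), and by 0.22 ± 0.035 after curve correction (adjusted p = 0.00484). There the arrays, drawn together across dyes by the curve, lay between -0.27 and -0.17. On centred values the call ended without replicate 1 (-0.39 ± 0.14, adjusted p = 0.23) or replicate 3 (-0.19 ± 0.14, adjusted p = 0.999), and after the curve without replicate 2 (-0.24 ± 0.045, adjusted p = 0.0574) or replicate 4 (-0.21 ± 0.045, adjusted p = 0.0697).

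Slc22a5 encodes OCTN2, the sodium-coupled carnitine carrier that supplies fatty acid oxidation. Its 5 probes gave 0.18 ± 0.089, -0.14 ± 0.084, -0.011 ± 0.084, -0.055 ± 0.084 and 0.072 ± 0.085 at probes 9, 751, 977, 1264 and 1390, and none was called (adjusted p = 0.338, 0.537, 0.991, 0.971 and 0.93). The probes thus lay on both sides of 0. Probe 9 lies in block 1, which lay high, and probe 751 in block 7, which lay low. After the curve the 5 probes had 0.098, -0.034, 0.0007, -0.024 and 0.010, in the same order, and none was called. Probe 9, the highest, had -1.31, 1.16, -0.38 and 1.26 on arrays 1 to 4, so that arrays 1 and 3, of the same dye, differed by more than at the other 4 probes. Probe 751 had -1.27, 0.75, -1.14 and 1.14, and probe 977 had -1.18, 1.17, -1.01 and 1.0. Probe 1264 had -1.15, 1.07, -1.24 and 1.12, and probe 1390 had -1.13, 1.34, -1.0 and 1.10. These followed the dye on every array. Of 12 listed genes of carnitine and fatty acid entry, 4 were measured at 9 probes with a median of -0.085. On centred values 1 probe fell, of Acadl (an acyl-CoA dehydrogenase, -0.26, adjusted p = 0.0485), while its other 2 probes had 0.043 and 0.046. After the curve 1 probe fell, of Cpt1a, the entry step of fatty acids into mitochondria (-0.19 ± 0.040, adjusted p = 0.0208).

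Slc22a3, the organic cation carrier OCT3, had -1.52, 0.21, -1.43 and 1.29 on arrays 1 to 4 at its probe 281, with array 2 far below array 4. It fell by 0.36 ± 0.092 (adjusted p = 0.00562), in block 3, and had -0.071 ± 0.034 after curve correction (adjusted p = 0.275). The 3 probes of Slc22a6, the organic anion carrier OAT1 of the kidney, had -0.069, -0.029 and -0.070, and those of Slc22a18 had -0.15, -0.12 and -0.031, none called on either set of values. For comparison, the Slc10a1 and Slco probes left out of the members numbered 13, of 4 genes. They had a median of -0.038 with 0 called, and 1 higher and 1 lower after the curve. The ABC transporters, pumps driven by ATP, had 8 probes of 6 genes with a median of 0.033 and 0 called. After the curve 1 probe rose, of Abcc2, the canalicular exporter of conjugates (0.19 ± 0.035, adjusted p = 0.0109).

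Of the cationic amino acid carriers, Slc7a1 (CAT1, which takes up arginine, lysine and ornithine) fell at 2 of its 4 probes on centred values. Probe 276 had -1.18, -0.14, -1.17 and 0.83 on arrays 1 to 4, and probe 259 had -1.57, 0.31, -1.53 and 1.43. In both, arrays 1 and 3 were low and array 4 was high, as the dye sets it, and array 2 was far below array 4. The estimates were -0.42 ± 0.090 (adjusted p = 0.000953) and -0.34 ± 0.093 (adjusted p = 0.0117). Both probes lie in block 3. Probe 197 had -1.48, 1.14, -1.25 and 1.34 on arrays 1 to 4 and probe 780 had -1.26, 0.93, -1.24 and 1.17, with arrays 2 and 4 closer together. Their estimates were -0.068 ± 0.084 and -0.11 ± 0.084 (adjusted p = 0.932 and 0.753).

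After curve correction, probe 276 had -0.14, -0.065, -0.20 and -0.28 on arrays 1 to 4, all below 0 (the curve itself draws the dye orientations together). It fell by 0.17 ± 0.041 (adjusted p = 0.0355). Its block kept an uneven profile after the curve: the 61 lower probe numbers, which hold all 7 carriers of the block, had a median of -0.025 with 2 called higher and 7 lower, and the 60 higher numbers had 0.026 with 5 higher and 0 lower. The part of position in the call of probe 276 was not tested. Probe 259 then had -0.039 ± 0.033 (adjusted p = 0.599), and probes 197 and 780 had -0.0067 and 0.010. The probes of the gene thus disagreed on both sets of values, and with probes averaged Slc7a1 did not pass (-0.23 ± 0.083 with adjusted p = 0.136, and -0.052 ± 0.031 with adjusted p = 0.388 after the curve). Without replicate 2, probe 276 had -0.21 ± 0.086 on centred values (adjusted p = 0.273), and without replicates 1 and 3 it had -0.46 and -0.38 (adjusted p = 0.107 and 0.591). After the curve its call ended without replicate 2 (-0.22, adjusted p = 0.0574) or replicate 4 (-0.12, adjusted p = 0.254).

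Slc7a7 (y+LAT1, which exchanges cationic for neutral amino acids) had -1.35, 0.15, -1.37 and 1.40 on arrays 1 to 4 at its block 3 probe 295, again with array 2 below array 4. It fell there by 0.30 ± 0.095 (adjusted p = 0.0462) and had -0.0084 ± 0.035 after the curve (adjusted p = 0.935), while its other 2 probes had -0.026 and 0.029. Slc7a5 (LAT1, the carrier of large neutral amino acids) had 0.052, 0.063 and -0.0011 at its 3 probes, none called. Slc3a1, the heavy chain that brings a cystine and cationic amino acid carrier to the membrane, had 0.057 ± 0.084. Of 17 listed enzymes of arginine and polyamines, 3 were measured at 4 probes (Oaz1, Odc1 and Amd1), with a median of -0.0095 and 0 called on either set of values.

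The 7 carrier probes of block 3 lay low together with the whole block. Their estimates lay between -0.42 and -0.25 with a median of -0.34, where the median of all probes of the block was -0.29 and 4 of them were above 0. Besides Slc7a1, Slc7a7, Slc22a3 and Slc17a7 the 7 included Slc35a1 and Slc6a4, neither called. Between arrays 2 and 4, which carry the same dyes, the deposited values of these 7 probes were higher on array 4 by 0.97 to 1.26 (median 1.10), against a median of 0.015 over the 83 carrier probes outside the block. Array 3 minus array 1 had a median of 0.0014 for these 7 and 0.075 for the other 83. Set against the median of their own block, probe 276 of Slc7a1 had a difference of -0.13 and the other 6 lay between -0.086 and 0.035. In each gene with probes inside and outside block 3 (Slc7a1, Slc7a7 and Slc6a4) every inside probe was lower than every outside probe. The calls of Slc7a1 probe 259, Slc22a3, Slc17a7 and Slc7a7 held without replicate 4 and ended without replicate 1, 2 or 3. Without replicate 2 their estimates were -0.094, -0.13, -0.12 and -0.012 (adjusted p = 0.91, 0.758, 0.793 and 0.995). Without replicate 1 they were -0.37, -0.38, -0.44 and -0.34 (adjusted p = 0.289, 0.258, 0.124 and 0.42), and without replicate 3 they were -0.32, -0.35, -0.30 and -0.26 (adjusted p = 0.999, 0.763, 0.999 and 0.999).

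**Figure D3:**
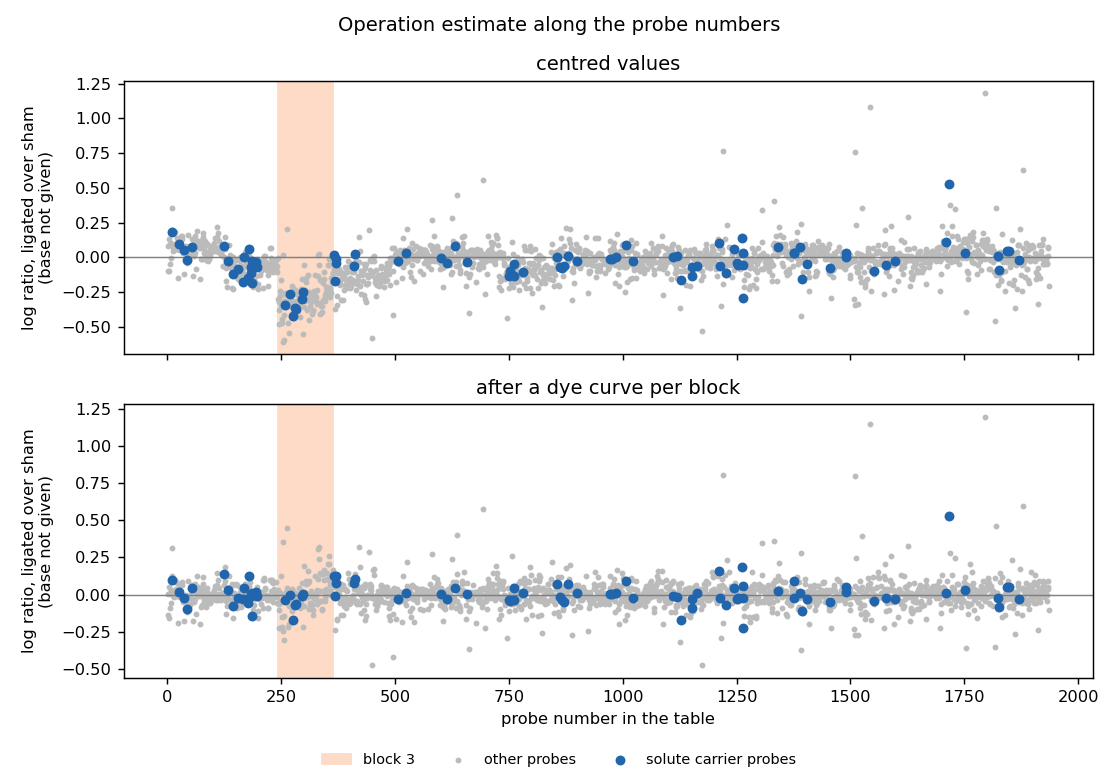
Log ratio of ligated over sham (vertical axis, base not given) against the probe number in the table (horizontal axis) for 1936 probes, on centred values (top) and after a dye curve per block (bottom), with solute carriers in blue and block 3 shaded. On top the whole of block 3 lies low, with a median of -0.29, and the 7 carriers lie within it.

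Carriers of neutral and acidic amino acids were not called on either set of values. Slc38a3 (SNAT3, the sodium-coupled glutamine carrier of hepatocytes) had -0.015, -0.18, 0.018, -0.061 and -0.16 at probes 42, 166, 365, 409 and 1393, each with an SE of 0.084 to 0.088. Probes 166 and 1393 were the lowest (adjusted p = 0.305 and 0.409), and after curve correction the 5 probes spread from -0.11 to 0.13. Slc38a2 (SNAT2, which takes up small neutral amino acids) had -0.028, -0.011, -0.038, -0.062 and 0.030 at its 5 probes. The glutamate carriers Slc1a1 and Slc1a2 and the neutral amino acid exchanger Slc1a5 lay between -0.060 and -0.019.

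Carriers known from neurons and their vesicles were also on the array. Slc17a7, the vesicular glutamate carrier, was called lower at block 3 probe 283, with -1.53, 0.29, -1.65 and 1.42 on arrays 1 to 4 and an estimate of -0.37 ± 0.093 (adjusted p = 0.00562). After the curve it had -0.066 ± 0.040 (adjusted p = 0.399). The serotonin carrier Slc6a4 had -0.25 ± 0.092 at its block 3 probe and 0.077 and 0.0087 at the others, none called, and the noradrenaline carrier Slc6a2 had -0.087. Slc6a18, a neutral amino acid carrier of the same family, had -0.024. The vesicular carriers of amines (Slc18a2) and of GABA (Slc32a1) had -0.028 and -0.12. Slc17a1, a phosphate and organic anion carrier of the other branch of SLC17, had 0.085, and none of these was called.

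Among sugar carriers, Slc2a2 (GLUT2, the main glucose carrier of the hepatocyte) had an estimate of 0.0024 ± 0.084 (0.072 ± 0.036 after the curve, adjusted p = 0.308). No carrier of the family was called on centred values. Slc2a4 (GLUT4, the insulin-responsive glucose carrier of muscle and fat) had 0.078, 0.082, 0.0004, -0.17 and -0.023 at its 5 probes. Its probe 124 had -0.26, 0.43, -0.28 and 0.46 as deposited. After the curve, which itself draws the dye orientations together, it was between 0.12 and 0.15 on all 4 arrays. It rose by 0.14 ± 0.033 (adjusted p = 0.0325), while the other 4 probes of the gene lay between -0.028 and 0.042. That call ended without replicate 2 (0.14, adjusted p = 0.181) or replicate 4 (0.14, adjusted p = 0.178). Slc2a1 (GLUT1), Slc2a8 (GLUT8), the urate carrier Slc2a9 and the myo-inositol carrier Slc2a13 lay between -0.13 and -0.046. In the list of glucose output and use, 4 of 9 genes were measured at 6 probes with a median of -0.18, and Pfkfb1, which makes and breaks fructose 2,6-bisphosphate, fell at probe 1125 (-0.36, adjusted p = 0.00307), and at probes 1125 and 1279 after the curve (-0.32 and -0.18, adjusted p = 0.00144 and 0.0119).

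Slc16a1 (MCT1, which carries lactate, pyruvate and ketone bodies with a proton) was called at 2 of 5 probes after curve correction and at none on centred values. As deposited, probe 1262 had -0.013, 0.45, -0.21 and 0.36 on arrays 1 to 4, and probe 1212 had 0.12, 0.28, -0.017 and 0.046. On centred values their estimates were 0.14 ± 0.085 and 0.10 ± 0.085 (adjusted p = 0.513 and 0.776), and probes 413, 1008 and 1213 had 0.025, 0.092 and -0.064. After the curve all 4 arrays were above 0 at both, from 0.14 to 0.23 and from 0.073 to 0.24. Agreement between the dye orientations there is built into the curve. The estimates were then 0.18 ± 0.034 and 0.16 ± 0.038 (adjusted p = 0.011 and 0.0341). Probes 413 and 1008 then had 0.11 and 0.092 without passing (adjusted p = 0.139 and 0.176), and probe 1213 had -0.025. With probes averaged the gene had 0.10 ± 0.028 after the curve (adjusted p = 0.0712). Both calls ended without replicate 2 (0.18 and 0.12, adjusted p = 0.115 and 0.29) and without replicate 4 (0.18 and 0.20, adjusted p = 0.0972 and 0.0604). The related monocarboxylate carrier Slc16a7 (MCT2) had 0.11 ± 0.084, and 0.011 after the curve.

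Slc31a1, the high-affinity copper importer, had -0.18, -0.17, -0.11 and -0.053 at probes 186, 1128, 1227 and 1579, each ± 0.084 to 0.086. All 4 probes were below 0 and stayed so after the curve (-0.15, -0.17, -0.070 and -0.023), but none was called (adjusted p = 0.295, 0.358, 0.729 and 0.975, and 0.342, 0.153, 0.27 and 0.808 after the curve). A fit without blocks 3 and 4 was chosen after seeing the data. There all probes had the same SE, 0.0646, so a probe's own spread did not count. In it probes 186 and 1128 were called lower, as was Slc38a3 probe 166. After the curve on all blocks, probe 186 had -0.45, -0.24, 0.15 and -0.043 on arrays 1 to 4 (SE 0.079). Probe 1128 had 0.055, -0.21, -0.39 and -0.13 (SE 0.061), so the arrays of both probes lay on both sides of 0. After the curve, Slc38a3 probe 166 had -0.032 (adjusted p = 0.673). The fit without blocks 3 and 4 called 7.97% of its 1694 probes and 5 of 77 carrier probes (6.49%).

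The other carriers of ions, dicarboxylates, vitamins and peptides named next were not called on either set of values. The cation chloride carriers Slc12a1, Slc12a2, Slc12a3 and Slc12a7 lay between -0.093 and 0.093. The dicarboxylate carrier Slc13a3 had 0.034, -0.046, 0.0053, 0.034 and 0.045 at its 5 probes. The peptide carrier Slc15a2 had -0.040 and 0.0050 at its 2 probes, and the related Slc15a3 and Slc15a4 had -0.073 and -0.10. Single probes gave -0.14 for the sulphate carrier Slc26a1, -0.052 for the folate carrier Slc46a1, -0.043 for the sodium bicarbonate carrier Slc4a4, 0.028 for the phosphate carrier Slc34a3, 0.011 for the mitochondrial carrier Slc25a14 and 0.0073 for the vitamin carrier Slc5a6. Slc35a1, the Golgi carrier of CMP-sialic acid, lay lower, at -0.27 ± 0.091 (adjusted p = 0.0724), at a block 3 probe that had -0.0041 after the curve. Of the water channels, Aqp1 had 0.083 and 0.071, and was called higher at 1 of 2 probes after the curve (0.19 ± 0.038, adjusted p = 0.019).

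Probes of a gene did not always give the same value. Of the 49 genes, 14 had more than 1 probe (55 probes). The range between probes of a gene had a median of 0.16 and ran from 0.041 (Slc22a6) to 0.35 (Slc7a1), and after curve correction the median was 0.14 and the highest 0.24. In 4 genes, Slc7a1, Slc22a6, Slc22a18 and Slc31a1, all probes were below 0 on centred values, and in none were all above. Of all 1936 probes, 1167 were below 0 on those values. After the curve Slc31a1 stayed below 0 at all probes, while the highest probes of Slc7a1, Slc22a6 and Slc22a18 had 0.0101, 0.0114 and 0.0044. With probes averaged, 3 of 49 genes were called on centred values (4.18% of 958 genes): Slc28a2 higher and Slc22a3 and Slc22a8 lower. After the curve 2 of 49 were called (7.10% of all genes), Slc28a2 higher and Slc22a8 lower. Without replicates 1, 2, 3 and 4 in turn the centred fit called 2, 2, 1 and 6 of the 49 genes, and 2.19%, 4.28%, 0.731% and 14.7% of all genes. The smallest size called over all probes was 0.26 on centred values and 0.13 after the curve, and the largest size not called was 0.36 and 0.32 (0.27 and 0.17 among the carriers), so whether a size between these was called depended on the probe.

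The carrier probes were spread more widely by the dye than by the operation (SD over probes 0.51 and 0.13). The mean deposited value turned to Cy5 over Cy3 ran from -1.59 (Slc34a3) to 0.48 (Slc38a3 probe 42), with a median of -0.93 against -0.81 over all probes. Values under -1 were held by 42 carrier probes (46.7%, against 39.5% of all probes) and values of -0.5 or more by 27 (30% against 37.2%). All 5 probes of Slc22a5 lay between -1.15 and -1.03, and all 3 of Slc22a18 between -0.083 and 0.056. In contrast the probes of Slc38a2 ran from -1.27 to 0.22, those of Slc16a1 from -1.22 to -0.055 and those of Slc2a4 from -1.30 to -0.24.

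The calls after the dye curve went with this value. Of the 6 called carrier probes, 5 had a Cy5 over Cy3 value of -0.5 or more, where 13.75% of all probes were called. Among the 42 carrier probes under -1 there were 0 calls after the curve, where 0.13% of all probes were called. The SD of the estimates after the curve was 0.041 over the carrier probes under -1 and 0.14 over those of -0.5 or more. Over all probes of the same ranges it was nearly the same, 0.042 and 0.14. Spot intensities were not used here, and the part of signal strength in this was not tested.

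**Figure D4:**
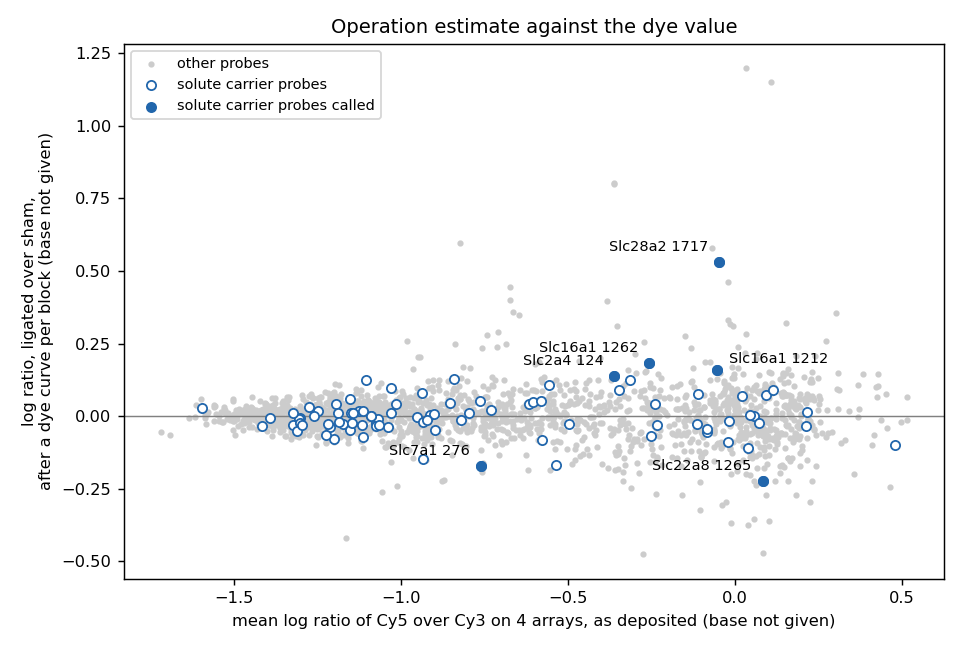
Log ratio of ligated over sham after a dye curve per block (vertical axis) against the mean log ratio of Cy5 over Cy3 as deposited (horizontal axis), for solute carrier probes (blue circles, filled where called) and all others (grey), base of the log not given. Carrier probes under -1 stay close to 0, and 5 of the 6 called lie at -0.5 or more.

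Markers of the liver's cell types were few on the array. Of 10 listed hepatocyte genes 4 were measured at 5 probes, between -0.24 and -0.042 and with 0 called (1 lower after the curve, Ttr). Of 8 cholangiocyte genes 2 were measured (0.047 and 0.095), of 5 neutrophil genes 1 (0.021 and 0.15 at its 2 probes) and of 5 endothelial genes 3 (-0.18 to -0.051), with 0 called on either set of values. Of 9 stellate and fibroblast genes 3 were measured at 4 probes: Col1a1 rose at 1 of 2 probes (0.34, adjusted p = 0.00526) and Ngfr fell at a block 3 probe, a call lost after the curve. Of 5 blood genes 1 was measured (Pf4, 0.14 and -0.30 at its 2 probes, the latter in block 3 and called lower), and 0 of 8 macrophage and lymphoid genes. The call of Pf4 was also lost after the curve (-0.053, adjusted p = 0.415). The part of cell types in the carrier values was not tested.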

How the data were processed

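The deposited table holds 1 log ratio per probe and array, used as deposited. For the scanner, background correction, normalization and log base the sources used here give nothing. Spot intensities were not used, and precision is limited by having 4 arrays. Values were centred on each array's median and fitted with limma 3.58.1 (R 4.3.3, lmFit and eBayes) on an intercept for the operation and a dye term (+1 where the ligated sample carried Cy5, otherwise -1), with 2 residual degrees of freedom, and adjusted by Benjamini-Hochberg over 1936 probes. The median SE was 0.0841, and 0.0354 after the dye curve. The smallest two-sided p of an exact sign-flip test on 4 arrays is 0.125, so none was used.

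For the dye curve, values turned to Cy5 over Cy3 were set against each probe's mean of the 4 arrays, and a lowess curve (span 0.4, 3 iterations) was subtracted within each of 16 equal runs of probe numbers before turning back and centring. The fit was also run on simulated data with a symmetric dye effect, independent noise and a constant shift of block 3 on a single array. Those data had no dye curves that differ between arrays and no uneven profile within blocks. That run therefore cannot show how the fit handles such features, and no call here rests on it.

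Symbols came from the platform annotation, which can be old, with 1432 probes of 1 symbol, 19 of several and 485 of none. All 90 carrier probes and 1429 of the 1432 matched RefSeq GRCr8 by gene ID. The members and lists were chosen with earlier results of these data known. Named genes were every member by family, with array values for those called on either set of values and for Slc7a1, Slc22a5 and Slc28a2. Alternatives changed the centring, dye handling, scaling, prior, threshold, reading of the ratio, averaging of probes and the arrays used.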

Additional observations from a re-analysis of the deposited data

Results flagged for a closer look

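In 4 of 90 carrier probes, 1 array lay so far from the other 3 that its gap, divided by the range, passed Dixon's critical value. Chance passes it in about 1 of 20 groups when all 4 values come from the same normal distribution. These values carry the dye and do not, so the count of 4 cannot be set against that rate. Slc22a5 probe 9 had a centred log ratio of -0.43 on array 1, against 0.34 to 0.41 on the others. Slc22a3 probe 281 had 0.42 on array 4, against -0.70 to -0.54. Slc7a7 probe 295 had 0.53 on array 4, against -0.64 to -0.48. Slc3a1 probe 1245 had 0.18 on array 2, against 0.0044 to 0.028. The values still carry the dye, with 2 arrays of each orientation, so the array named is the one far from the other 3 and need not be the one that departs from its partner of the same dye. Array 3 minus array 1 was 0.92 for Slc22a5 probe 9, 0.090 for Slc22a3, -0.016 for Slc7a7 and 0.13 for Slc3a1, and array 4 minus array 2 was 0.10, 1.07, 1.26 and -0.029. In block 3, which holds the Slc22a3 and Slc7a7 probes, the median centred value of all probes was -0.87 on array 2 and 0.13 on array 4, against 0.054 and -0.0078 in the other blocks.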

How the results depend on the processing

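The centred fit called 7 carrier probes, 1 higher and 6 lower, and 3 genes. Without centring it called 0 probes (0 higher, 0 lower, and 5 at an unadjusted p under 0.05 in limma) and 1 gene. Without the dye term it called 0 probes (0 at an unadjusted p under 0.05) and 0 genes. No share over all probes is given for the unadjusted p. The dye curve per array called 1 probe, higher, 0 lower, and 1 gene. The dye curve per block called 4 higher and 2 lower, also with a span of 0.7. Equal scaling called 2 probes, 1 lower, and 1 gene. The robust prior called 3 probes, 2 lower. A threshold of 0.01 left 4 probes, 3 lower, and 1 gene. Averaging probes per gene gave 3, of which 2 lower. Centring on block medians called 2 probes, 1 lower, and 1 gene. Reading every array as Cy5 over Cy3, which makes the estimate the dye effect, called 75 probes (83.3%, against 82.6% of all probes), 33 higher and 42 lower, and 38 genes. Of all 1936 probes, 111 were called by the centred fit, 3 without centring, 0 without the dye term, 7 with the curve per array, 123 with the curve per block (144 with the span of 0.7), 62 with equal scaling, 67 with the robust prior, 64 at the threshold of 0.01 and 87 with block medians. Of all 958 genes, the centred fit called 40, against 2 without centring, 0 without the dye term and 3 with the curve per array. Equal scaling called 35 of all genes, the threshold of 0.01 left 14, block medians gave 26 and the Cy5 over Cy3 reading 737 (76.9%). Leaving out 1 array on centred values gave 0 to 10 carrier probes (0 to 1 higher and 0 to 9 lower) and 1 to 6 carrier genes. The lowest count of carrier probes came without replicate 1, where 24 of all probes were called. Over these fits 12 to 241 of all probes and 7 to 141 of all genes were called. After the dye curve per block, leaving out 1 array gave 1 to 10 carrier probes (1 to 7 higher and 0 to 4 lower) and 2 carrier genes each time. There 42 to 223 of all probes and 44 to 99 of all 958 genes were called. The curve itself was fitted on all 4 arrays, so the array left out still shaped those values. Of 16 alternatives, Slc28a2 was called in 13 (0.44 to 0.58), Slc22a8 in 8 (-0.39 to -0.19) and Slc7a1 probe 276 in 7 (-0.63 to -0.12). Slc7a7 probe 295 turned to 0.013 and 0.012 (adjusted p = 0.942 and 0.944) after the curve without replicate 2 and without replicate 3. The block medians, the span, the fits without single arrays after the curve and the fit without blocks 3 and 4 were chosen after seeing the data. Fits on 3 arrays on centred values gave all probes the same SE, 0.144 without replicate 1 or 3 and 0.0864 without replicate 2 or 4. The causes of these differences were not tested. Each log ratio already sets ligated against sham RNA on the same array. No further pairing between arrays was used, and all 4 arrays form 1 group. Signal over background was not used here.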
